A study of Arabidopsis thaliana with 41 samples.

Results

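The genes described here are the 34 Arabidopsis genes for the plastid enzymes that turn pyruvate into fatty acids. They were chosen by function, as a list of locus identifiers (AGI codes); the rule uses no measured value, but the list was drawn up with earlier results of these data known. They cover 19 enzymes or subunits in 6 roles: 7 genes of the plastid pyruvate dehydrogenase complex, 4 of acetyl-CoA carboxylase, 8 of the fatty acid synthase cycle, 5 acyl carrier proteins, 6 stearoyl-ACP desaturases, and 4 genes for release and activation of the finished chain. All 34 were found among the 33544 genes of the expression table, and all 34 passed the filter on low values, which left 18389 genes to be tested. Transcripts assigned to the same AGI code were summed.

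In the plastids of a developing oilseed embryo, pyruvate dehydrogenase makes acetyl-CoA, and acetyl-CoA carboxylase turns part of it into malonyl-CoA, the committed step. The fatty acid synthase then lengthens an acyl chain held on acyl carrier protein (ACP) in repeated turns of condensation, reduction, dehydration and a second reduction. A soluble desaturase puts the first double bond into stearoyl-ACP, thioesterases free the chain, and an acyl-CoA synthetase activates it for export, where it feeds storage oil. In Arabidopsis the AP2-type transcription factor WRI1 activates many genes of this pathway, and VAL1 is a B3-domain repressor of the seed maturation programme.

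Embryos of 2 genotypes, wild type (WT) and the val1 mutant, were compared by RNA-seq at 7 ages (7, 8, 10, 12, 13, 15 and 17 days); the labels name no allele or treatment. The 41 libraries gave 3 per genotype and age, except WT at day 17 with 2. The design text speaks of 3 biological and 4 technical replicates without saying which library is which, so p-values measure the spread between these libraries, which may be partly technical. The spread of a gene was estimated over all 14 groups together and shared by every contrast. A p-value for one day therefore also depends on how far the libraries of other ages scatter. Levels are FPKM (fragments per kilobase of transcript, relative to the reads of the library), divided by transcript length, so that levels can be compared between genes, and scaled between libraries. Differences are on the scale of log2(scaled FPKM + 0.5). A gene was called when its Benjamini-Hochberg adjusted p over all 18389 genes was under 0.05.

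The estimated depth was 8321306 to 51738641 reads per library (median 29731894). VAL1 itself, listed as HSI2, was lower in val1 on all 7 days (20.2 FPKM in WT and 6.53 at day 10; log2 difference -1.69 with SE 0.07, adjusted p = 5.17e-19 averaged over the ages). The defining embryo markers passed the filter (9 of 9 tested), but not all were detected at every age. In WT 1 of them was at 0 at day 13 and 2 at day 17. In val1 2 were at 0 at day 15 and 2 at day 17. Between genotypes 2 of the 9 were called higher in val1 on average (19.9% of all tested genes), 2 at day 15 (11.9%) and 3 at day 17 (9.98%). The list medians were 0.08, -0.07 and 0.86 on the log2 scale, and 7 of the 9 values were positive at day 17. The interaction was called for 4 (16.6% of all tested genes). None was called lower, against 12%, 5.53% and 5.45% of all tested genes on average and at days 15 and 17. Of 14 endosperm markers 4 passed the filter, and their summed level ran from 9.69 to 220.8 FPKM in WT libraries and from 9.20 to 141.6 in val1; none was called between genotypes in any contrast, and 3 to 11 of the 14 were at 0 in a group. Most of that sum from day 10 on was EPR1, at 154 FPKM in WT and 59.0 in val1 at day 15. Of 9 seed coat markers 7 passed, with sums from 1.02 to 53.8 FPKM in WT and from 2.32 to 51.1 in val1. On average 2 of the 7 were called higher in val1 (19.9% of all tested genes) and 0 lower (12%), and 6 values were positive. At days 13, 15 and 17 MUM4 alone was called higher (1.04, 0.78 and 0.81 on the log2 scale). The shares of all tested genes called higher were 10.8%, 11.9% and 9.98%. The part of the endosperm and seed coat markers in the results was not tested. In 5 libraries (replicate 2 of WT and val1 at days 13 and 15, and val1 library b at day 17; the 3 val1 libraries of day 17 could be tied to their group but not to a replicate number and are called a, b and c, in the order in which their values are given) 31 to 33 of the 34 genes lay under their group mates, with a median of -1.13 to -0.51 on the log2 scale. Val1 day 7 replicate 3 was also low for 32 of the 34 genes, with a median of -0.263. The unnumbered WT library of day 8 was low for 31, with a median of -0.343. The 5 libraries had the lowest medians, and results were therefore also computed without them. Because they stood out by the levels of these same genes, leaving them out narrows the spread by construction.

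The stretch of DNA just upstream of these genes is shown because WRI1 is known to bind a short element there, the AW-box, with the letters CNTNGNNNNNNNCG. Windows from 250 bases before to 50 bases after each annotated gene start were read from the RefSeq TAIR10.1 assembly and searched on both strands. The AW-box letters occurred in 8 of the 34 windows (23.5%), against 11.9% of the windows of 27443 protein-coding genes. For 4 genes the match lay wholly upstream of the gene start, and each is printed along the gene's own strand with the matched letters in capitals. Positions count from the gene start, and in a match marked as opposite the element reads on the other strand.
PDH-E1 ALPHA (chr1:49343-49416, gene on the minus strand, match from position -82): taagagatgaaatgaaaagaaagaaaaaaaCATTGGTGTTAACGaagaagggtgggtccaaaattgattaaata
LACS9 (chr1:29152500-29152573, gene on the minus strand, opposite match from position -148): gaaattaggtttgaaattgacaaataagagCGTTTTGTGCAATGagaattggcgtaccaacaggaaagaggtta
AT4G16155 (chr4:9157197-9157270, gene on the minus strand, match from position -107): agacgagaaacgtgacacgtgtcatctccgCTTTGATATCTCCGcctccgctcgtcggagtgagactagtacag
ACP5 (chr5:9571117-9571184, gene on the plus strand, match from position -38): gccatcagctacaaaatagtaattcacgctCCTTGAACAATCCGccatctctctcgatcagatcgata

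In the other 4 genes the match touched or followed the annotated start. It read CTTTGTACACTCCG in ACP1 (chr3:1392936-1392949) and CTTTGTACTCTCCG in the dehydratase gene AT2G22230 (chr2:9449963-9449976). In CAC3 (chr2:15917034-15917047) it read CGTGGGCACGTGCG and overlapped a G-box, and in PDH-E1 BETA (chr1:10586670-10586683) the opposite match CGATGAAAACAATG straddled the start. The RY element CATGCA, bound by B3-domain factors, was present in 3 of the 34 windows (8.82%, against 9.72% of all protein-coding genes), and the G-box CACGTG in 5 (14.7%, against 7.68%). Among the windows of 17600 tested genes the shares were 12% for the AW-box, 8.74% for RY and 9.53% for the G-box. These are letter matches in one window, not measured binding.

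Most of the 34 genes followed one course over age, a maximum at day 8 and then a fall to a small part of it by day 17. In WT 24 genes had their highest group mean at day 8 and 1, ACP4, at day 7. FAB1, ACP1, AT3G02630 and FaTA were highest at day 10, and SSI2, AT5G16240 and FATB at day 12. AT5G16230 was highest at day 13, and AT3G02610, which never exceeded 0.770 FPKM in a WT library, at day 17. As a percentage of each gene's own highest mean, the median over the 34 genes in WT was 75.4% at day 7, 100% at day 8, 73.1% at day 10, 46.2% at day 12, 26.5% at day 13, 5.39% at day 15 and 0.718% at day 17. In val1 the same medians were 70.8%, 100%, 74.7%, 51.7%, 39.6%, 9.46% and 2.11%. In whole embryos, fewer cells of a type and less RNA per cell cannot be told apart.

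**Figure D1:**
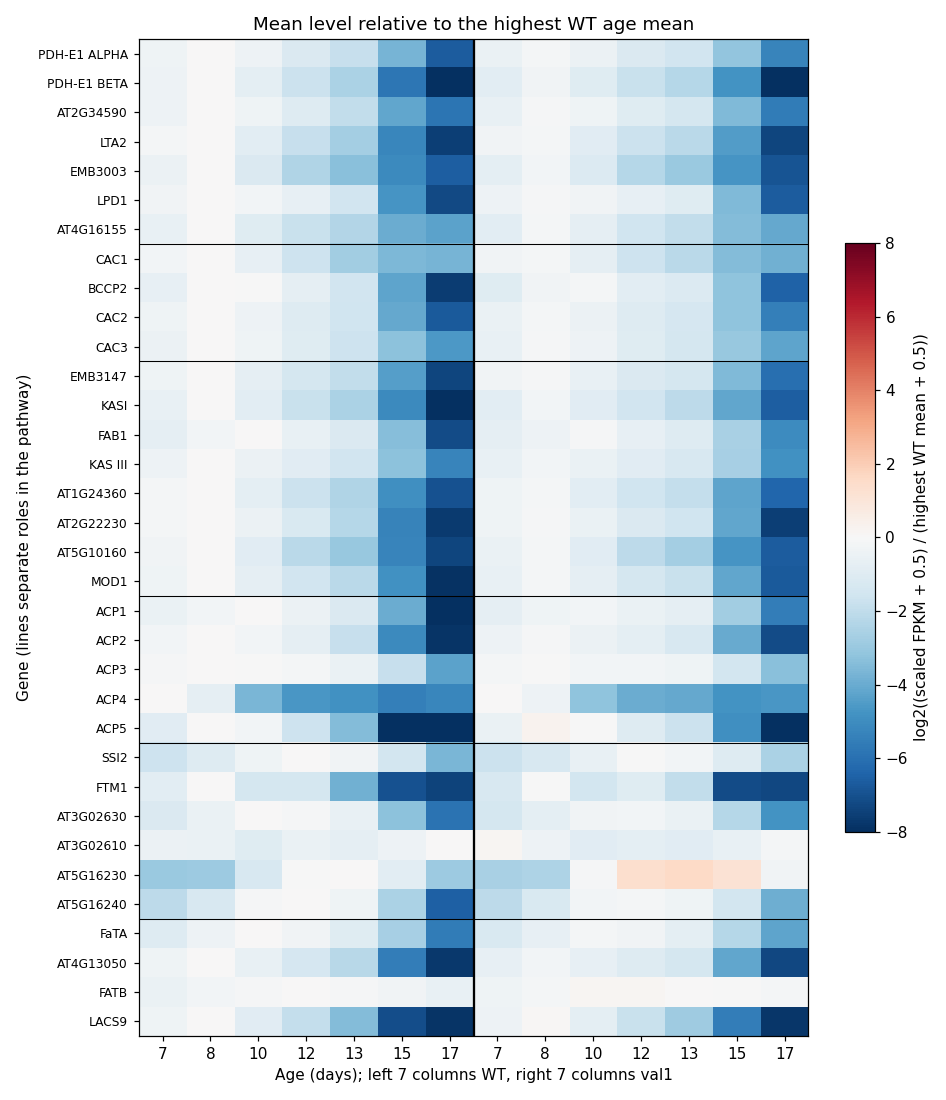
Mean level of the 34 genes (rows, in pathway order with lines between roles) at 7 ages (columns, WT left and val1 right), as log2 of the scaled FPKM + 0.5 relative to the highest WT mean; blue is lower and red higher. Most rows turn dark blue by day 17, where the median level in WT is 0.718% of the highest mean, while the AT5G16230 row is on the red side in val1 at days 12, 13 and 15, where its means of 11.9, 14.7 and 10.4 FPKM exceed its highest WT mean of 4.41.

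Summed over the pathway, the genes took 2.32% ± 0.24 of the assigned reads in WT at day 7 (SD, n = 3), 3.01% ± 0.38 at day 8, 1.40% ± 0.07 at day 10 and 0.376% ± 0.099 at day 13. By day 17 the share was 0.0215% ± 0.0038 (n = 2). The val1 share was 1.96% ± 0.25 at day 7 and 2.79% ± 0.14 at day 8, close to or under the WT share, and 0.504% ± 0.057, 0.146% ± 0.053 and 0.0305% ± 0.0063 at days 13, 15 and 17. At day 15 the libraries of the genotypes overlapped, from 0.0578 to 0.126% in WT and from 0.0904 to 0.196% in val1. At day 17 they also overlapped, with WT up to 0.0241% and val1 from 0.0235%.

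**Figure D2:**
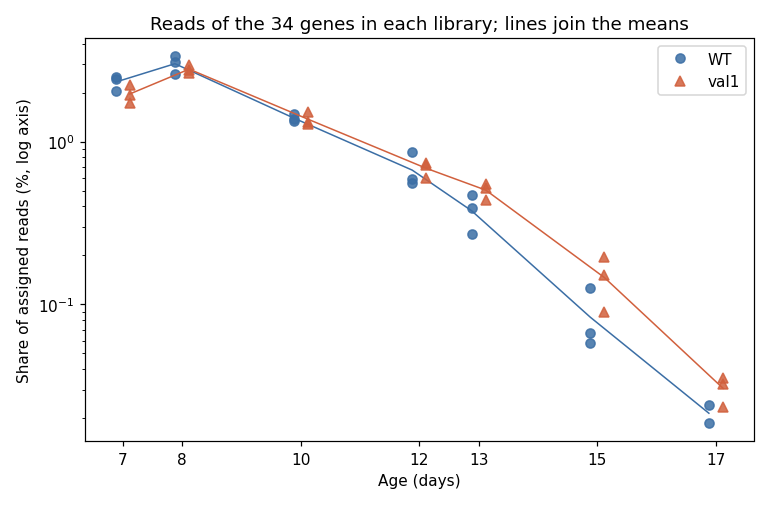
Share of the assigned reads (percent, log axis) taken by the 34 genes in each library against age in days; points are libraries and lines join the group means. The share peaks at day 8 near 3.01% in WT and 2.79% in val1 and is 0.0215% and 0.0305% at day 17.

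Between days 7 and 10 of WT, 7 of the 34 genes rose and 3 fell, against 33.5% and 35.6% of all tested genes. Those that rose act late in the pathway: the desaturases SSI2 (1.36 on the log2 scale), AT5G16240 (2.01), AT5G16230 (1.70) and AT3G02630 (1.16), the thioesterases FaTA (1.00) and FATB (0.44), and FAB1 (0.71), the condensing enzyme for the last elongation. Not all late members rose. The desaturases FTM1 and AT3G02610, the thioesterase AT4G13050 and LACS9 had lower means at day 10 than at day 7, without a call. Without scaling of the libraries, FATB and FAB1 read -0.28 and -0.0375. ACP4 fell by 3.67 on the log2 scale (adjusted p = 6.14e-14), from 304, 316 and 218 FPKM at day 7 to 28.6, 15.6 and 21.1 at day 10. The pyruvate dehydrogenase subunit EMB3003 fell by 0.66 and the carboxylase subunit CAC1 by 0.46. Without scaling, 3 genes rose and 23 fell, and the count of falls was 1 without WT day 7 replicate 2 or WT day 10 replicate 1 or 2, 5 without WT day 15 replicate 2 or 3, and 6 without val1 day 15 replicate 2.

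From day 10 to day 13 of WT 27 genes fell (27.8% of all tested genes fell), with log2 differences of -0.98 (FaTA) to -3.45 (ACP5), and AT5G16230 rose by 1.28 (24.3% of all tested genes rose). From day 13 to day 17 32 genes fell (35.1%), with log2 differences of -0.54 (FATB) to -7.36 (ACP1), and AT3G02610 was called higher (30.4%) at under 1 FPKM, a call lost without any 1 of WT day 13 replicates 1 and 3 and WT day 17 replicates 1 and 2. ACP4, already at 9.24 FPKM at day 13, was not called (-0.41, adjusted p = 0.211).

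In val1 7 genes rose and 2 fell from day 7 to day 10, against 35% and 35.4% of all tested genes. Those that rose were 4 desaturases, 2 genes of release and activation and 1 of acetyl-CoA carboxylase. Those that fell were 1 ACP and 1 desaturase. The rises in val1 were thus not limited to late steps. From day 10 to day 13 AT5G16230 rose by 1.78 (19.1% of all tested genes rose) and 23 genes fell (21.8%), with log2 differences of -0.73 (LPD1) to -2.06 (LACS9). The count of falls was 12 without val1 day 13 replicate 2. From day 13 to day 17 1 gene rose (32.2%), again AT3G02610, and 31 fell (38.9%), with log2 differences of -1.68 (CAC1) to -6.95 (ACP5). FATB, at 14.2, 12.6 and 16.2 FPKM at day 13 and 13.7, 11.0 and 12.2 at day 17, was not called (-0.21, adjusted p = 0.177). Over the 34 genes the median log2 change from day 10 to day 13 was -1.47 in WT and -0.90 in val1, and from day 13 to day 17 it was -4.71 and -4.22; the difference between the genotypes is tested day by day.

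Part of these genes stood higher in val1 than in WT during the decline, 6 of them at day 13, 12 at day 15 and 14 at day 17, and no gene was called lower in val1 on any day. Averaged over the 7 ages, 13 of the 34 genes were called higher in val1 (19.9% of all tested genes) and 0 lower (12%; 0 also at an unadjusted p under 0.05, by limma and by limma-voom). By limma-voom 11 were called higher. The median log2 difference over the 34 genes was 0.22, against 0.02 over all tested genes, and 33 of the 34 values were positive. By role the calls were 2 of 7 for pyruvate dehydrogenase, 0 of 4 for acetyl-CoA carboxylase, 3 of 8 for the synthase cycle, 3 of 5 ACPs, 2 of 6 desaturases and 3 of 4 genes of release and activation. The differences were widest for the desaturase AT5G16230 (log2 difference 1.36 with SE 0.12, adjusted p = 6.02e-11), the carrier ACP5 (log2 difference 1.08 with SE 0.20, adjusted p = 8.27e-05) and the carrier ACP1 (log2 difference 0.55 with SE 0.17, adjusted p = 0.0143). The call of ACP1 was lost without WT day 17 replicate 1 (adjusted p = 0.0607), that of LPD1 without any 1 of 4 libraries (WT day 13 replicate 2, WT day 17 replicate 1, val1 day 15 replicates 1 and 3; highest adjusted p = 0.0829), and that of AT4G16155 without any 1 of 24 of the 41. Without the 5 low libraries 28 genes were called higher (3753 of 18343 tested genes). Over the 34 numbered libraries 5 were (2984 of 18300 tested genes). The numbered libraries hold no val1 library of day 17 and so give an average over 6 ages. FAB1, EMB3147, KASI, ACP1, AT5G16240, LPD1, AT4G16155 and AT4G13050 were not called over these 6 ages.

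At days 7 and 8 none of the 34 genes was called higher (1.95% and 2.16% of all tested genes) or lower (1.35% and 1.25%), by limma or limma-voom, and none had an unadjusted p under 0.05. At day 10 (3.53% higher, 1.88% lower) and at day 12 (5.45% and 3.07%) the single call was the desaturase AT5G16230. At day 13 6 genes were called higher (10.8% of all tested genes; 6.76% lower), at day 15 12 (11.9%; 5.53% lower) and at day 17 14 (9.98%; 5.45% lower). The median log2 differences over the 34 genes were -0.18, -0.11, -0.04, 0.03, 0.47, 0.74 and 0.62 in order of age. The genes called at day 15 and at day 17 differed: EMB3147, KASI, AT3G02630, AT5G16230 and AT5G16240 were called on both days. Single libraries moved these counts. The day 13 count was 2 without WT replicate 2 or val1 replicate 1 and 3 without val1 replicate 3. The day 15 count was 4 without WT replicate 2, 5 without val1 replicate 1 or 3, 25 without WT replicate 3 and 28 without val1 replicate 2. The day 17 count was 4 without WT replicate 1, 9 without val1 library a and 7 without val1 library c. Without scaling the count was 22 at day 15 and 8 at day 17. Of all 18389 tested genes 2123 and 2626 were then called, in either direction. Without the 5 low libraries the count was 24 on each of these days (3297 and 3844 of 18343 tested genes). In the second deposited quantification the calls of AT4G13050, CAC1 and ACP5 at day 13, of KAS III, KASI, LACS9, AT4G16155 and AT5G16240 at day 15 and of EMB3147, MOD1 and FATB at day 17 were lost.

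**Figure D3:**
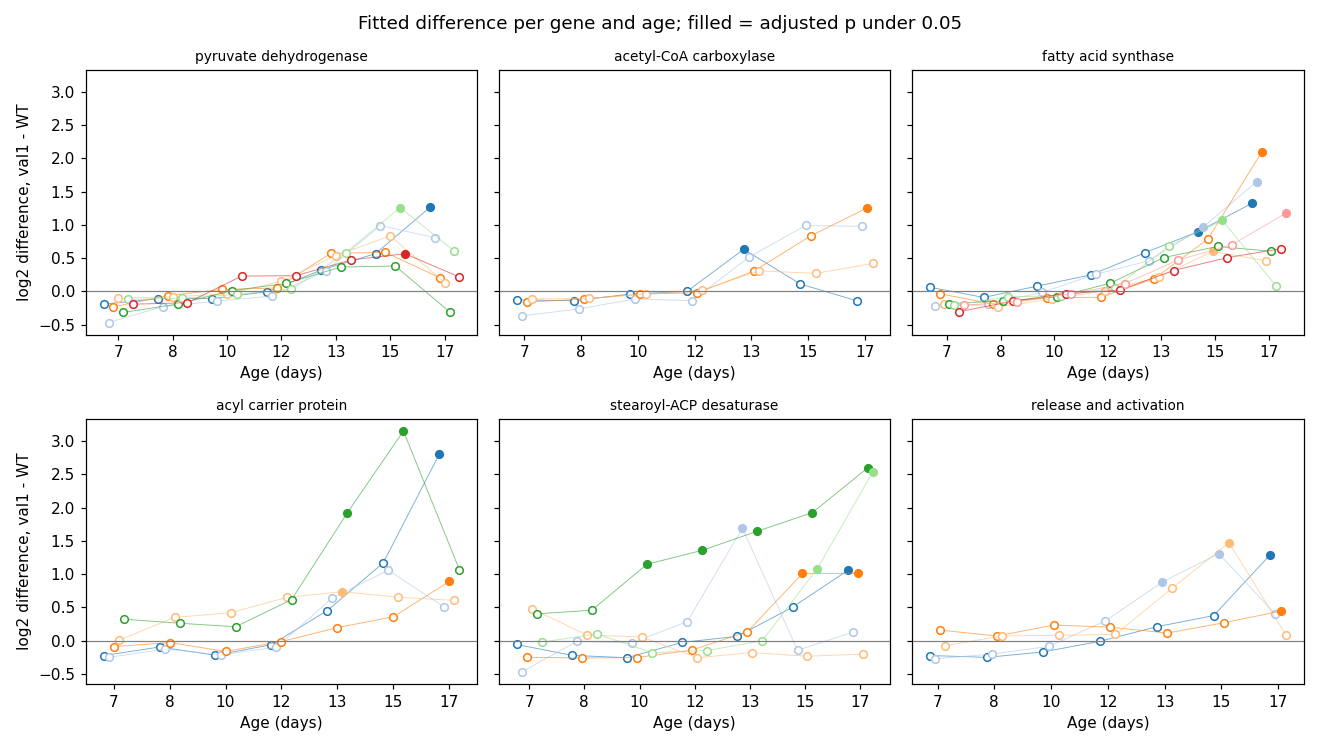
Log2 difference between val1 and WT for each gene by role against age in days; filled points have an adjusted p under 0.05. Filled points number 0 at days 7 and 8, 1 each at days 10 and 12, and 6, 12 and 14 at days 13, 15 and 17, all on the side where val1 is higher.

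Libraries were also compared one by one, without regard to replicate numbers. At days 13 and 15 replicate 2 was the low library of both genotypes. The groups can therefore overlap at these ages even where each val1 library exceeds the WT library of its own number. Every val1 library exceeded every WT library for 15 of the 34 genes at day 17 (24.1% of all tested genes), 4 at day 15 (15.5%) and 5 at day 13 (17.8%), and none of the 34 was lower in every library at those ages (18.8%, 10.2% and 14.6% of all tested genes were). At the earlier ages every val1 library was above every WT library for 0 of the 34 at day 7 (7.77% of all tested genes), 1 at day 8 (AT5G16230; 7.87%), 3 at day 10 (11.9%) and 4 at day 12 (14.3%). Every val1 library lay under every WT library for 5 genes at day 7 (6.91%), among them PDH-E1 BETA, CAC3 and AT3G02630, and for 3 at day 8 (5.68%), CAC3, FAB1 and AT3G02630. The same held for 2 at day 10 (10.1%), BCCP2 and AT4G13050, and for 2 at day 12 (11.7%), BCCP2 and FAB1. The difference between genotypes changed with age, by a test of the interaction over all 14 groups, for 9 of the 34 genes (16.6% of all tested genes): KASI, FAB1, ACP1, ACP5, AT3G02630, AT5G16230, AT5G16240, FaTA and AT4G13050. That count was 4 without WT day 17 replicate 1, 5 without val1 day 15 replicate 1 and 14 without val1 day 17 library b. It was 15 without WT day 15 replicate 3 and 20 without val1 day 15 replicate 2. Without the 5 low libraries it was 26 (3878 of 18343 tested genes). Over the 6 ages of the numbered libraries it was 2 (1282 of 18300 tested genes).

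The pyruvate dehydrogenase complex supplies acetyl-CoA. PDH-E1 ALPHA, a subunit of the decarboxylating E1 enzyme, was the most abundant of its genes, at 778 ± 196 FPKM in WT and 711 ± 101 in val1 at day 8 (SD, n = 3). In order of age its group means were 602, 778, 596, 351, 221, 58.4 and 7.19 FPKM in WT and 528, 711, 553, 348, 274, 85.7 and 19.5 in val1. At day 17 it stood at 6.33 and 8.06 FPKM in the WT libraries and 21.2, 9.63 and 27.6 in val1. All 3 val1 libraries were above both WT libraries, with val1 library b nearest to them (log2 difference 1.26 with SE 0.33, adjusted p = 0.00646). The call was lost without WT day 17 replicate 1 or val1 day 17 library c (highest adjusted p = 0.105).

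LPD1, the dihydrolipoyl dehydrogenase that reoxidises the complex, was called at day 15. Its group means ran through 147, 176, 151, 111, 61.9, 6.26 and 0.672 FPKM in WT and 136, 164, 146, 113, 88.5, 15.1 and 1.27 in val1. Its libraries held 6.57, 2.58 and 9.63 FPKM in WT and 18.2, 7.59 and 19.5 in val1. Each val1 library exceeded the WT library of the same number, although the labels do not pair them. The val1 replicate 2 lay within the WT range and the other two above it (log2 difference 1.26 with SE 0.29, adjusted p = 0.0024; lost without WT replicate 2, adjusted p = 0.064). Its paralogue AT4G16155 was higher by 0.57, adjusted p = 0.039, from 10.2, 6.47 and 11.4 FPKM in WT to 14.1, 11.1 and 16.5 in val1; the lowest val1 library lay under the highest WT library. That call was lost without WT replicate 2 or val1 replicate 1 or 3 (highest adjusted p = 0.345) and with no filter. The E1 beta gene PDH-E1 BETA went from 512 ± 147 FPKM at day 8 to 8.94 ± 5.69 at day 15 in WT, and from 426 ± 34.9 to 18.1 ± 9.85 in val1. The acetyltransferase LTA2 went from 256 ± 86.9 to 6.31 ± 4.12 FPKM and from 234 ± 22.4 to 11.1 ± 4.59. In order of age PDH-E1 BETA had group means of 387, 512, 294, 155, 88.5, 8.94 and 0.425 FPKM in WT and 279.7, 426, 266, 147, 107, 18.1 and 1.16 in val1. Those of LTA2 were 226, 256, 142, 69.8, 38.8, 6.31 and 0.879 FPKM in WT and 211, 234, 138, 77.2, 56.0, 11.1 and 1.09 in val1. Neither was called between genotypes on any day, nor were AT2G34590 and EMB3003.

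Within each pair of pyruvate dehydrogenase genes the shares differed between ages, with no test made. AT2G34590 made up 24.2% ± 1.47 of the E1 beta transcript in WT at day 7 and 86.6% ± 11.3 at day 17. AT4G16155 went from 40.8% ± 4.03 to 91.7% ± 4.52 of the dihydrolipoyl dehydrogenase transcript, and EMB3003 from 49.0% ± 0.596 to 74.4% ± 1.35 of the acetyltransferase transcript. In each pair the gene with the lower or equal share at day 7 held most of the small remainder at day 17. The E1 beta coding sequences are 85.6% identical and those of the dehydrogenases 86%, so the separate levels of the copies are uncertain.

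Acetyl-CoA carboxylase makes malonyl-CoA and is regarded as the committed step. Its biotin carboxylase CAC2 stood at 588 ± 125 FPKM in WT and 537 ± 48.7 in val1 at day 8. Its means over the ages were 460.3, 588, 439.7, 289, 194, 34.5 and 5.12 FPKM in WT and 412, 537, 428, 284, 236, 62.7 and 12.6 in val1. At day 17 it held 2.62 and 7.62 FPKM in WT and 16.5, 5.99 and 15.2 in val1. The WT libraries differed severalfold from each other and val1 library b lay between them (log2 difference 1.26 with SE 0.37, adjusted p = 0.0179). This call was lost without WT replicate 1 or val1 library a or c (highest adjusted p = 0.523) and without scaling. The alpha carboxyltransferase CAC3 stood at 201 ± 9.64 FPKM in WT and 187 ± 2.20 in val1 at day 8 and at 7.75 ± 1.00 (n = 2) and 10.5 ± 1.35 at day 17. Over all ages the CAC3 means were 144, 201, 157, 101, 63.4, 20.2 and 7.75 FPKM in WT and 132, 187, 153, 103, 76.9, 24.6 and 10.5 in val1. It was not called on any day.

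The biotin carrier exists in 2 forms. BCCP2 had its highest mean at day 8 in WT (563 ± 123 FPKM) and at day 10 in val1 (506 ± 8.98), and stood at 30.2 ± 17.7 and 58.8 ± 26.7 at day 15, with no call. Its means by age were 359, 563, 547, 344, 193, 30.2 and 2.36 FPKM in WT and 282, 464, 506, 312, 264, 58.8 and 5.96 in val1. CAC1 was called at day 13, at 30.6, 15.6 and 28.3 FPKM in WT and 46.4, 26.2 and 42.3 in val1. Val1 replicate 2 lay within the WT range and the other two above it (log2 difference 0.63 with SE 0.20, adjusted p = 0.0257; lost without WT replicate 2 or val1 replicate 1 or 3, highest adjusted p = 0.353). The call was also lost when reference forms alone were counted and in the second deposited quantification. CAC1 held its level late, at 13.5, 12.7 and 15.4 FPKM at day 15 and 10.9 and 14.3 at day 17 in WT. Its share of the biotin carrier transcript was 29.5% ± 2.09 at day 7 and 84.1% ± 1.20 at day 17. Most of that late level, 12.4 FPKM, came from one assembled form of 2668 bases that shares splice junctions with the reference gene without matching it.

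In the synthase cycle EMB3147 loads malonyl groups onto ACP. It held 0.729 and 1.62 FPKM in WT and 4.47, 2.33 and 4.19 in val1 at day 17, and the groups did not overlap (log2 difference 1.32 with SE 0.31, adjusted p = 0.00247; lost without WT replicate 1, adjusted p = 0.14). At day 15 it held 10.7, 7.44 and 18.9 in WT and 28.5, 12.9 and 28.4 in val1, with overlap (0.90, adjusted p = 0.0206; lost without WT replicate 1 or 2 or val1 replicate 1 or 3, highest adjusted p = 0.214). At day 8 WT stood at 271 ± 28.5 FPKM and val1 at 254 ± 6.12. The 7 means by age were 211, 271, 165, 100.3, 69.3, 12.3 and 1.18 FPKM in WT and 222, 254, 176, 119, 102, 23.2 and 3.67 in val1.

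The condensing enzymes act one after the other. KAS III starts the chain, KASI carries it to palmitoyl-ACP and KASII, listed as FAB1, makes stearoyl-ACP. KASI was at 650 ± 176 FPKM in WT and 558 ± 34.3 in val1 at day 8. By age its means were 427, 650, 355, 191, 112, 18.9 and 1.56 FPKM in WT and 364, 558, 352, 224, 150.4, 36.5 and 6.11 in val1. At day 15 its libraries held 19.6, 10.2 and 26.8 FPKM in WT and 44.0, 21.6 and 43.9 in val1, and at day 17 1.11 and 2.00 in WT and 8.14, 3.55 and 6.64 in val1. The groups overlapped at day 15, through WT replicate 3 and val1 replicate 2, and not at day 17, where val1 was 3.92 times the WT mean (log2 difference 1.65 with SE 0.35, adjusted p = 0.000926). The day 15 difference was 0.97, adjusted p = 0.0281, and was lost without WT replicate 2 or val1 replicate 1 or 3 (highest adjusted p = 0.288). The day 17 call was lost without WT replicate 1 (adjusted p = 0.0548).

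FAB1 had its highest mean at day 10, 339 ± 25.6 FPKM in WT and 317 ± 9.14 in val1. Its 7 means were 206, 292, 339, 229, 149.7, 31.9 and 1.90 FPKM in WT and 202, 255, 317, 215, 168, 56.4 and 10.0 in val1. At day 17 it held 1.17 and 2.62 FPKM in WT and 12.3, 4.82 and 12.9 in val1. All 3 val1 libraries were above both WT libraries, at 5.29 times their mean (log2 difference 2.09 with SE 0.34, adjusted p = 2.81e-05), and the call held with any 1 of the 41 libraries left out (highest adjusted p = 0.00934). KAS III was called at day 15 (0.60, adjusted p = 0.0331), at 14.5, 10.5 and 21.5 FPKM in WT and 24.2, 16.4 and 29.9 in val1, with overlap. KAS III means by age were 114, 152, 112, 80.2, 53.2, 15.5 and 3.45 FPKM in WT and 101, 129, 104, 80.4, 61.4, 23.5 and 4.92 in val1. That call was lost without WT replicate 1 or 2 or val1 replicate 1 or 3 (highest adjusted p = 0.314).

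**Figure D4:**
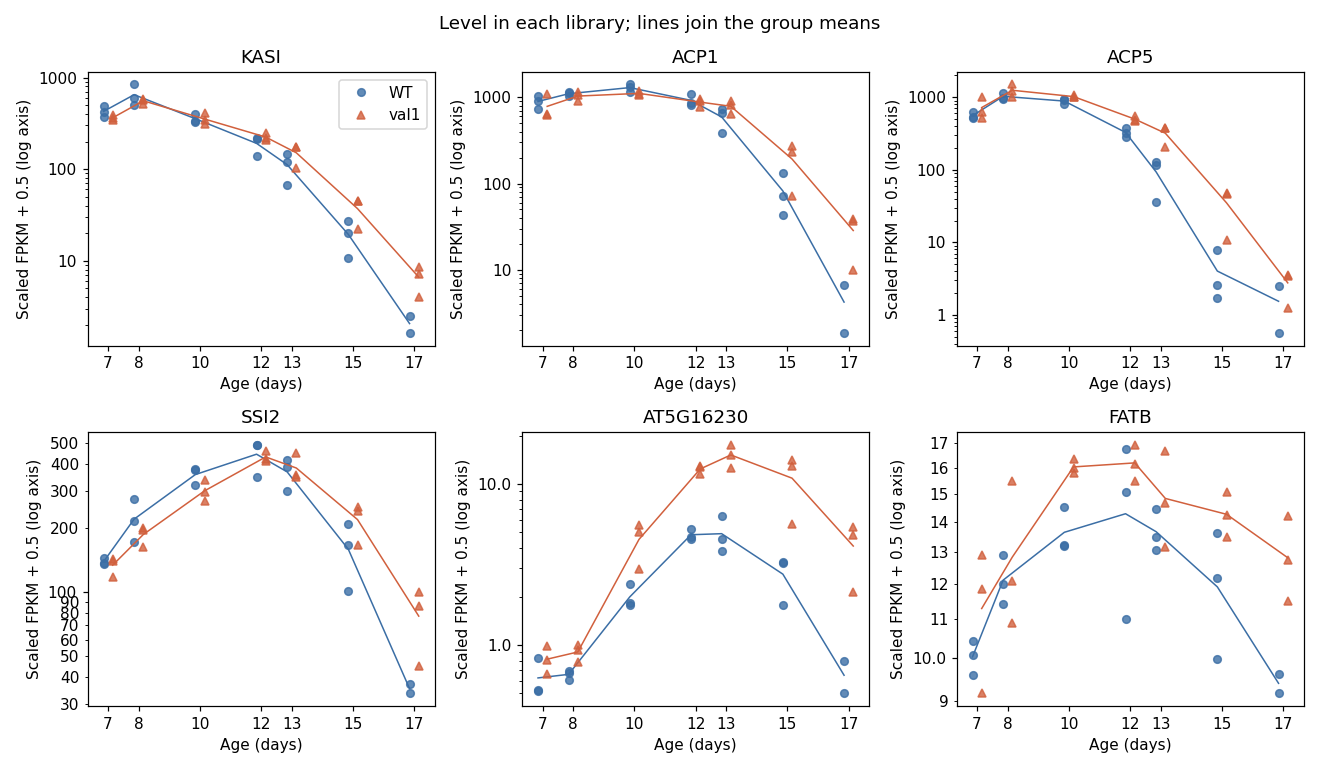
Scaled FPKM + 0.5 (log axis) against age in days for KASI, ACP1, ACP5, SSI2, AT5G16230 and FATB; circles are WT libraries, triangles val1 libraries, and lines join the group means. The WT and val1 lines of KASI, ACP1 and SSI2 part late, those of ACP5 are furthest apart at day 15, and the 3 val1 libraries of AT5G16230 lie above the WT libraries from day 10 on.

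The reductases and dehydratases of the cycle showed fewer calls. The ketoacyl reductase gene AT1G24360 went from 729.9 ± 201 FPKM at day 8 to 24.0 ± 8.47 at day 15 in WT and from 648 ± 74.9 to 39.3 ± 15.3 in val1. The dehydratase AT5G10160 went from 280 ± 71.3 to 6.62 ± 2.88 and from 249 ± 33.2 to 10.1 ± 5.04. The full course of AT1G24360 was 641, 729.9, 426, 218, 136, 24.0 and 5.29 FPKM in WT and 569.7, 648, 402, 237, 190.5, 39.3 and 8.64 in val1. That of AT5G10160 was 233, 280, 150, 63.6, 33.1, 6.62 and 1.26 FPKM in WT and 191, 249, 146, 64.5, 41.3, 10.1 and 2.28 in val1. Neither was called on any day. The second dehydratase, AT2G22230, was called at day 15, at 3.48, 2.81 and 5.96 FPKM in WT and 11.9, 3.93 and 13.7 in val1 (1.07, adjusted p = 0.0248). Val1 replicate 2 lay within the WT range, and the call was lost without WT replicate 1 or 2 or val1 replicate 1 or 3 (highest adjusted p = 0.233) and with limma-voom. The enoyl reductase MOD1 was called at day 17, at 1.42 and 3.08 FPKM in WT and 7.89, 2.67 and 7.29 in val1 (1.17, adjusted p = 0.0408). Its means over the 7 ages were 521, 669.6, 410, 233, 148, 23.2 and 2.25 FPKM in WT and 450.2, 589, 401, 249, 198, 37.0 and 5.95 in val1. Val1 library b lay under WT replicate 2, and the call was lost without WT replicate 1 or val1 library a or c (highest adjusted p = 0.45), without scaling, with a pseudocount of 1, with no filter and with limma-voom.

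The ACPs carry the growing chain and were among the most abundant of these transcripts. ACP1 had its highest mean at day 10, at 1297 ± 131 FPKM in WT and 1111 ± 62.6 in val1. In order of age it had means of 895, 1101, 1297, 921, 591, 81.5 and 3.71 FPKM in WT and 786, 1034, 1111, 879, 787, 192 and 28.0 in val1. At day 15 its libraries held 70.7, 42.4 and 131 FPKM in WT and 232, 72.0 and 272 in val1, with overlap and no call (1.17, adjusted p = 0.0684). Each val1 library exceeded the WT library of the same number, although the labels do not pair them. At day 17 the ACP1 libraries held 1.33 and 6.08 in WT and 36.6, 9.41 and 37.9 in val1. Every val1 library was then above both WT libraries, although val1 library b lay nearer to the WT libraries than to its group mates. The val1 mean was 7.55 times the WT mean (log2 difference 2.80 with SE 0.50, adjusted p = 0.000124), a call that held with any 1 library left out (highest adjusted p = 0.0404).

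ACP5 parted earlier. Over age its means went through 556, 1029, 885, 327, 92.9, 3.52 and 1.04 FPKM in WT and 720.5, 1247, 1021, 499.7, 319, 34.5 and 2.27 in val1. At day 12 its libraries held 286, 321 and 375 FPKM in WT and 467, 484 and 549 in val1, without overlap and without a call (0.62, adjusted p = 0.587). At day 13 they held 116, 35.3 and 128 in WT and 381, 205 and 371 in val1, and at day 15 2.08, 1.22 and 7.26 in WT and 45.8, 10.4 and 47.5 in val1. The groups did not overlap on either day. The day 13 difference (log2 difference 1.92 with SE 0.53, adjusted p = 0.00919) was lost without WT replicate 2 or val1 replicate 1 (highest adjusted p = 0.142). At day 15 the val1 mean was 9.81 times the WT mean (log2 difference 3.15 with SE 0.53, adjusted p = 4.49e-05), the largest difference at that age among the 34 genes, and it held with any 1 library left out (highest adjusted p = 0.0013). At day 17 both genotypes were low, at 0.0603 and 2.03 in WT and 3.10, 0.741 and 2.97 in val1 FPKM, with overlap and no call (1.07, adjusted p = 0.258). The authors' deposited table, fitted by the submitters on these libraries, lists for ACP5 a log2 difference of 1.96 at day 13 and 3.39 at day 15, with an adjusted p of 0.000577 over the ages.

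ACP4, known in Arabidopsis as the main leaf ACP, was the early form. It held 304, 316 and 218 FPKM in WT and 244, 357 and 242 in val1 at day 7, with overlap, and 7.56, 9.03 and 11.1 in WT and 16.1, 12.7 and 18.3 in val1 at day 13, where val1 was above WT in every library (0.73, adjusted p = 0.0432). That daily call was lost without WT replicate 1 or 2 or val1 replicate 1 or 3 (highest adjusted p = 0.178), but the difference averaged over ages (log2 difference 0.49 with SE 0.10, adjusted p = 0.000215) held with any 1 library left out. The call of day 13 was also lost with median-of-ratios scaling, with no filter, with limma-voom and without the 5 low libraries. ACP3 was called at day 17, at 23.3 and 35.3 FPKM in WT and 61.6, 36.1 and 69.2 in val1, barely without overlap (0.89, adjusted p = 0.0207; lost without WT replicate 1 or val1 library a or c, highest adjusted p = 0.33, and without scaling). ACP2 was not called on any day. ACP2 and ACP3 lie near each other (chr1:20389347-20391147 and chr1:20401357-20403166) and their coding sequences are 94.2% identical, so their separate levels are uncertain; the other pairs of ACPs are 62.1 to 77.1% identical.

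The mixture of ACP transcripts differed between ages. ACP4 made up 9.48% ± 0.768 of the summed ACP level in WT at day 7 and 0.473% ± 0.147 at day 12. ACP1 stood at 45.1% ± 2.73 at day 13 and at 7.68% ± 5.48 at day 17, when ACP3 made up 67.0% ± 0.208. In val1 at day 17 ACP1 made up 25.6% ± 8.52 and ACP3 55.9% ± 4.25. ACP5 went from 19.1% ± 1.43 at day 7 to 6.73% ± 2.46 at day 13 in WT, and from 24.9% ± 1.61 to 16.6% ± 2.40 in val1. Shares were not tested between genotypes.

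**Figure D5:**
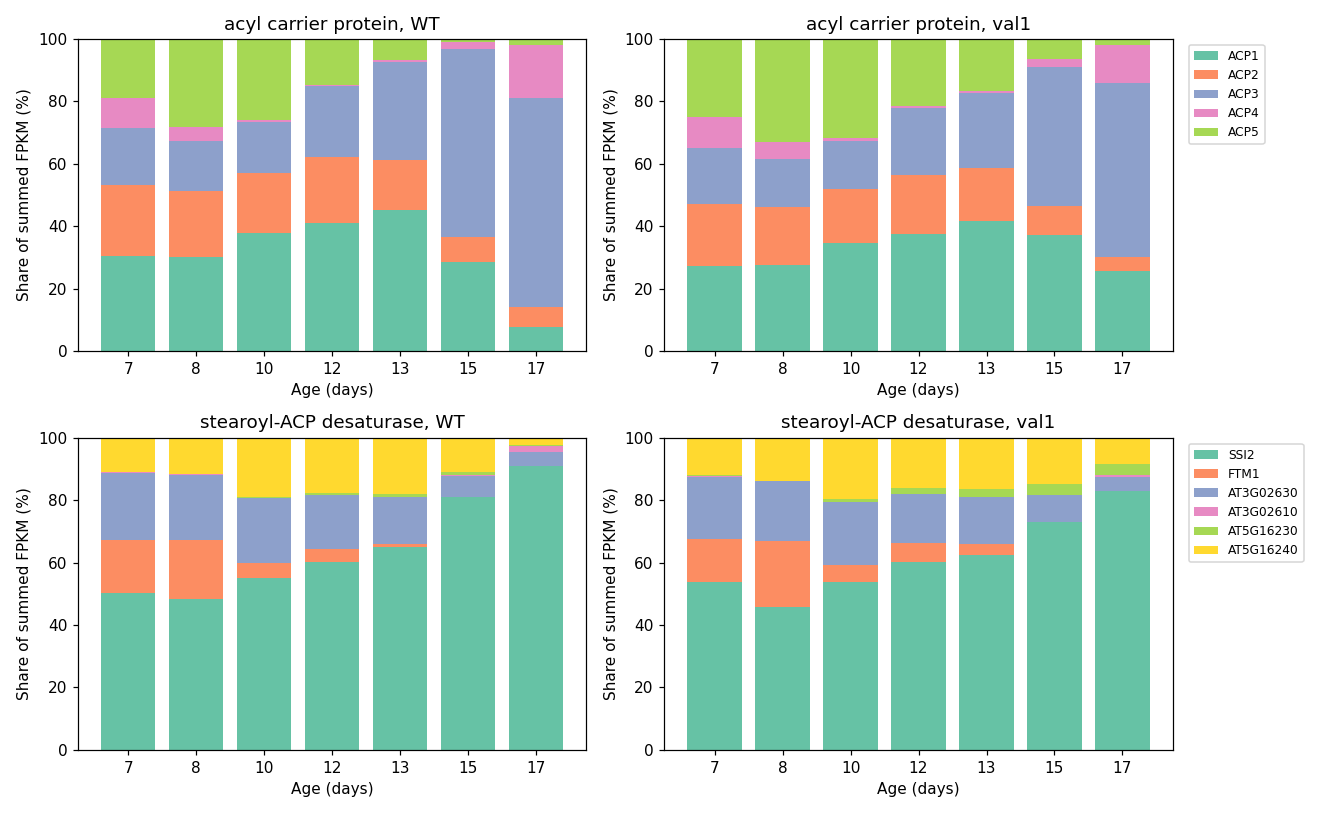
Share (percent) of each gene in the summed level of the 5 ACPs and of the 6 desaturases, by age in days and genotype; bars are means over libraries. ACP4 shrinks from 9.48% at day 7 in WT, ACP3 holds 67.0% at day 17, and SSI2 holds 90.9% of the desaturase level at day 17 in WT.

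Stearoyl-ACP desaturases make oleoyl-ACP, and SSI2 is the main enzyme in Arabidopsis. The genes are grouped here by family, and the substrate and product of each were not measured. Unlike most of the pathway it was highest at day 12, at 445 ± 83.5 FPKM in WT and 432 ± 25.1 in val1. Group means by age were 139, 220.2, 357, 445, 367, 159 and 34.8 FPKM in WT and 134, 186, 299, 432, 383, 219 and 76.8 in val1. At day 17 its libraries held 33.0 and 36.6 FPKM in WT and 85.9, 44.8 and 99.9 in val1. The groups did not overlap (log2 difference 1.05 with SE 0.26, adjusted p = 0.00467), and the call was lost without WT replicate 1 or val1 library c (highest adjusted p = 0.0682) and without scaling. SSI2 made up 50.2% ± 3.02 of the desaturase level at day 7 in WT and 90.9% ± 1.61 at day 17, against 82.8% ± 2.48 in val1 at day 17.

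AT5G16230 was the gene with the most days of difference, called at days 10, 12, 13, 15 and 17. Its course over age was 0.124, 0.157, 1.49, 4.34, 4.41, 2.25 and 0.149 FPKM in WT and 0.317, 0.405, 4.03, 11.9, 14.7, 10.4 and 3.62 in val1. It was nearly silent at day 7, at 0.328, 0.0168 and 0.028 FPKM in WT and 0.488, 0.305 and 0.157 in val1. At day 12 it held 4.08, 4.73 and 4.21 in WT and 12.4, 12.2 and 11.0 in val1, and at day 13 4.06, 3.31 and 5.87 in WT and 12.1, 14.7 and 17.1 in val1. At both ages each val1 library was above each WT library (log2 difference 1.36 with SE 0.31, adjusted p = 0.00358; log2 difference 1.64 with SE 0.31, adjusted p = 0.000245). At day 15 it held 2.77, 1.27 and 2.73 in WT and 12.5, 5.12 and 13.5 in val1, and at day 17 0 and 0.297 in WT and 4.33, 1.63 and 4.89 in val1 FPKM, one WT library being listed at 0. The groups again did not overlap (log2 difference 1.92 with SE 0.31, adjusted p = 3.24e-05; log2 difference 2.60 with SE 0.35, adjusted p = 1.85e-06). Calls from day 12 on held with any 1 library left out, although the day 12 call was lost with a pseudocount of 0.1 and in the second deposited quantification. At day 10 the difference of 1.15, adjusted p = 0.0214 was lost without WT replicate 1 or 3 or val1 replicate 1 or 2 (highest adjusted p = 0.119), with a pseudocount of 0.1, in the second deposited quantification and with limma-voom. The authors' deposited table, from the submitters' own fit, gives 5.57 for its log2 difference at day 17. That fit may treat levels near 0 FPKM differently, so 5.57 and 2.60 are not comparable in size.

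Its neighbour AT5G16240 (chr5:5306740-5309961, beside AT5G16230 at chr5:5302905-5306088) was the more abundant of the pair and was called at days 15 and 17. At day 15 it held 20.6, 12.2 and 33.8 FPKM in WT and 53.6, 25.9 and 60.9 in val1, and at day 17 0.454 and 1.40 in WT and 9.52, 3.34 and 11.7 in val1. The groups overlapped at day 15 through WT replicate 3 and val1 replicate 2, and not at day 17, where the val1 mean was 8.84 times the WT mean (log2 difference 2.53 with SE 0.35, adjusted p = 2.88e-06). The day 17 call held with any 1 library left out (highest adjusted p = 0.00188). The day 15 call (1.08, adjusted p = 0.0145) was lost without WT replicate 2 or val1 replicate 1 or 3 (highest adjusted p = 0.175). The coding sequences of the neighbours are 68% identical, and AT5G16240 is closer to AT3G02630 (85.4%).

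AT3G02630 was called at day 15, at 13.0, 7.11 and 20.2 FPKM in WT and 30.3, 14.4 and 37.1 in val1 with overlap (1.01, adjusted p = 0.0151), and at day 17, at 1.61 and 1.84 in WT and 4.91, 2.09 and 5.93 in val1 without overlap (1.01, adjusted p = 0.0332). The call of day 15 was lost without WT replicate 2 or val1 replicate 1 or 3, and that of day 17 without WT replicate 1 or 2 or val1 library a or c. Most of its level came from an assembled form of 3152 bases, longer than the reference form of 1671 bases, and both calls were lost when reference forms alone were counted. The day 17 call was also lost without scaling, with a pseudocount of 1 and with limma-voom. FTM1 was called at day 13, at 6.98, 4.91 and 4.98 FPKM in WT and 33.1, 21.2 and 9.70 in val1. Every val1 library was above WT, over a wide range (log2 difference 1.69 with SE 0.40, adjusted p = 0.00279); the call held with any 1 library left out (highest adjusted p = 0.046) and was lost without the 5 low libraries. By day 15 FTM1 was at or under 0.333 FPKM in every library. AT3G02610 stayed low throughout and was not called on any day. Antisense forms were listed for ACP2, ACP3, AT3G02630, BCCP2 and FaTA, at group means of at most 4.13 FPKM; they were left out of the sums, and whether the counting used strand is not given in the sources used here.

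Release and activation end the pathway. FaTA, a thioesterase for oleoyl-ACP, held 2.23 and 3.09 FPKM in WT and 9.43, 3.69 and 10.4 in val1 at day 17, without overlap (log2 difference 1.29 with SE 0.29, adjusted p = 0.0016; lost without WT replicate 1, adjusted p = 0.0585). FaTA means by age were 76.2, 114, 153, 126, 78.7, 23.9 and 2.66 FPKM in WT and 65.4, 95.1, 136, 123, 89.7, 30.6 and 7.83 in val1. Its paralogue AT4G13050 was called earlier, at day 13, with 37.1, 14.8 and 33.4 FPKM in WT and 59.3, 38.4 and 51.7 in val1, and at day 15, with 2.24, 1.47 and 3.75 in WT and 8.67, 3.23 and 9.72 in val1. The groups were apart at day 13 (0.88, adjusted p = 0.0293; lost without WT replicate 2 or val1 replicate 1 or 3, highest adjusted p = 0.365, and with a pseudocount of 0.1) and overlapped at day 15, through WT replicate 3 and val1 replicate 2 (log2 difference 1.31 with SE 0.29, adjusted p = 0.00124), a call that held with any 1 library left out. The coding sequences of the pair are 81.8% identical.

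LACS9, the acyl-CoA synthetase of the plastid envelope, had its highest mean at day 8, at 149 ± 7.52 FPKM in WT and 156 ± 12.6 in val1. Its means in order of age were 116, 149, 80.4, 39.9, 12.8, 0.61 and 0.138 FPKM in WT and 110.5, 156, 85.1, 42.5, 20.5, 2.72 and 0.189 in val1. At day 15 it held 0.647, 0.185 and 0.997 in WT and 3.76, 1.03 and 3.36 in val1. The groups did not overlap, and val1 replicate 2 lay just above the highest WT library (log2 difference 1.47 with SE 0.31, adjusted p = 0.000967, a call that held with any 1 library left out). FATB, a thioesterase for saturated chains, was the member whose level varied least with age, from 9.53 ± 0.425 FPKM at day 7 to 13.8 ± 2.94 at day 12 and 8.89 ± 0.303 at day 17 in WT (n = 2 at day 17). In val1 it was at 10.8 ± 1.92, 15.7 ± 0.723 and 12.3 ± 1.35 FPKM at those ages. All FATB means by age were 9.53, 11.6, 13.1, 13.8, 13.2, 11.4 and 8.89 FPKM in WT and 10.8, 12.3, 15.5, 15.7, 14.3, 13.8 and 12.3 in val1. At day 17 its libraries held 9.11 and 8.68 in WT and 13.7, 11.0 and 12.2 in val1, without overlap. That call (0.44, adjusted p = 0.0493) lay at the threshold. It was lost in 29 of the 41 fits that left out 1 library and with either other scaling, a pseudocount of 1, no filter, reference forms alone, the second quantification and limma-voom, while the average over ages (log2 difference 0.21 with SE 0.05, adjusted p = 0.00234) was not lost in any.

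The course of each gene was set beside the median course of the 34 genes over the 14 group means on the log2 scale, as a description. Most genes had a Pearson correlation with it over 0.9. The values were 0.81 for AT5G16240, 0.70 for SSI2, 0.67 for ACP4, 0.34 for FATB, -0.07 for AT5G16230 and -0.51 for AT3G02610, a gene near 0 FPKM. The median course includes each gene itself.

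A list of 17 further genes, named plastid carbon supply and cofactors, was set beside the pathway. It is a mixed list and is not limited to steps that feed the pathway. Between WT days 10 and 13 12 of the 17 fell (27.8% of all tested genes), and between days 13 and 17 13 fell (35.1%). Averaged over the ages 2 of the 17 were called higher in val1 and 3 lower, against 19.9% and 12% of all tested genes. At day 15, when 11.9% of all tested genes were called higher and 5.53% lower, 6 were called higher, among them the pyruvate transporter BASS2 (1.36 on the log2 scale) and the enolase ENO1 (1.16), and 1 lower, AT3G57280 (-0.42). At day 17 4 were called higher (9.98% of all tested genes) and 1 lower (5.45%), at a list median of 0.16. WRI1, the activator of the pathway, was on this list. It stood at 282 ± 16.9 FPKM in WT and 241 ± 21.2 in val1 at day 10. At day 17 its libraries lay between 1.46 and 2.41 FPKM in WT and between 4.77 and 12.8 in val1, without overlap (log2 difference 1.96 with SE 0.27, adjusted p = 3.12e-06). Of 12 genes for mitochondrial counterparts of these enzymes, 3 were called higher and 1 lower on average (19.9% and 12% of all tested genes). Of the 12, 2 were called higher at day 13 (10.8%), 1 at day 15 (11.9%) and 1 at day 17 (9.98%), where 1 was also lower (5.45%). From day 13 to day 17 of WT 3 of the 12 rose (30.4% of all tested genes) and 3 fell (35.1%).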

How the data were processed

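Expression was measured by paired-end RNA-seq (75-base reads) of dissected and washed embryos, and the titles gave the genotype and age of the 41 libraries. The authors deposited FPKM per assembled transcript with its length; TopHat2, StringTie and TAIR10 are named per the submitters' processing notes, without versions or roles. The products of FPKM and length had 1 common total over all libraries, so values are relative to the assigned reads, and a gene that takes more of a library lowers the others. The second deposited sheet holds a signal on an FPKM-like scale (99.9997% of its values are not whole) and served as an alternative. The authors' deposited comparison table gives log2 differences, an F score and p-values for transcripts past their threshold. Depth was estimated from the steps of the low FPKM values and is 8321306 to 51738641 reads. Of the columns, 4 marked as replacements (days 8 and 12) carry no matching replicate number, and the names of the 3 for val1 at day 17 match other samples' labels as well once separators are left out, so these 7 were used as unnumbered libraries of their groups.

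Forms equal to or sharing splice junctions with a gene were summed per gene. Scaling factors came from the trimmed mean of M values (trims of 30% for ratios and 5% for means). A gene entered the test if 2 or more libraries held 1 FPKM or more, as log2(scaled FPKM + 0.5), which understates changes of low genes, with limma 3.58.1 (trend) in R 4.3.3. One model of 14 group means (27 residual degrees of freedom) gave the average and daily differences between genotypes, their interaction with age and the differences between ages, with Benjamini-Hochberg adjustment over all tested genes and a threshold of 0.05. The fit was tested on simulated data, in which each gene had the same spread at all ages, and only the average difference was checked. That test cannot show how the daily calls fare where the spread differs between ages. Promoter windows, coding identities and symbols come from RefSeq TAIR10.1, in which all 34 genes were found by locus tag; the files carry no coordinates. Tables and figures were made with Python 3.11.15, numpy 2.4.6, pandas 2.3.3 and matplotlib 3.10.9.

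The members and the gene and marker lists were chosen with earlier results of these data known. Levels in every group or library are given for the most abundant gene of each enzyme, for genes called on average with a log2 difference of at least 0.5, and for genes called on at least 4 of the 7 days; other members are given by ranges, counts and the libraries of the ages at which they were called. Alternatives were other scalings, pseudocounts, filters, reference forms alone, the second sheet, limma-voom, a replicate block and leaving out each library. Leaving out 5 low libraries was added after seeing the data.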

Additional observations from a re-analysis of the deposited data

Results flagged for a closer look

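For 9 of the 34 genes the difference between val1 and WT changed with age, by limma's F test of the interaction over the 7 ages, adjusted over all tested genes. In the fatty acid synthase cycle these were KASI (adjusted p = 0.0237) and FAB1 (adjusted p = 0.00303), called at days 15 and 17 and at day 17, respectively. Among the acyl carrier proteins they were ACP1 (adjusted p = 0.00824), called at day 17, and ACP5 (adjusted p = 0.022), called at days 13 and 15. Among the desaturases they were AT3G02630 (adjusted p = 0.0447), AT5G16230 (adjusted p = 0.00561) and AT5G16240 (adjusted p = 0.000402). Of the thioesterases they were FaTA (adjusted p = 0.0375), called at day 17, and AT4G13050 (adjusted p = 0.0243), called at days 13 and 15.

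With each of the 41 libraries left out in turn, the interaction of AT5G16230 and of AT5G16240 was not lost (highest adjusted p = 0.031 and 0.0145). It was lost in 31 fits for AT3G02630, in 10 for FaTA, in 4 each for ACP5 and AT4G13050, in 3 for KASI and in 1 each for FAB1 and ACP1. For FAB1 and ACP1 that library was WT day 17 replicate 1 (adjusted p = 0.0684 and 0.133).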

How the results depend on the processing

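With each of the 41 libraries left out, the number of the 34 genes called higher in val1 was 11 to 18 on average over ages, 0 at days 7 and 8, 0 to 1 at day 10, 1 at day 12, 2 to 8 at day 13, 4 to 28 at day 15 and 4 to 16 at day 17, none was called lower on average, and the interaction held for 4 to 20. Over WT ages 6 to 7 rose and 1 to 6 fell from day 7 to 10, 1 rose and 26 to 28 fell to day 13, and 0 to 1 rose and 32 fell to day 17; in val1 these were 6 to 8 and 1 to 2, 1 and 12 to 25, and 0 to 1 and 31 to 32. Without scaling the counts were 22 at day 15 and 8 at day 17, with 3 rises and 23 falls in WT and 3 rises and 16 falls in val1 from day 7 to 10. No scaling also shifted the median of all genes by -0.645 and -0.5 (WT, days 7 to 10 and 10 to 13), -0.514, -0.49 and -0.265 (val1, the same and days 13 to 17), 0.108 (day 15) and -0.241 (day 17). The share of all calls that were higher became 75.1% at day 13 (61.5% with scaling), 84.2% at day 15 (68.3%), 24.7% at day 17 (64.7%), 20.7% and 12.3% over the first 2 WT intervals (48.5% and 46.7%), and 26%, 8.97% and 33.9% over the val1 intervals (49.7%, 46.7% and 45.3%). Signs reversed without scaling from WT day 7 to 10 for AT2G34590 (-0.72), LPD1 (-0.72), CAC3 (-0.62), FAB1 (-0.0375), ACP3 (-0.69) and FATB (-0.28), from day 10 to 13 for SSI2 (-0.61) and FATB (-0.61), and in val1 from day 7 to 10 for AT4G16155 (-0.52), KAS III (-0.58) and FATB (-0.0830).

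The day 10 call became 0 with a pseudocount of 0.1, with the second quantification and with limma-voom, and the day 12 call 0 with that pseudocount and with the second quantification. The single rise from day 13 to 17 became 0 in WT with no scaling, a pseudocount of 0.1, a filter of 5 FPKM, the second quantification and limma-voom, and in val1 with no scaling, that filter and the second quantification. With the second quantification 1 gene fell in WT and 1 in val1 from day 7 to 10 (in val1 also with the 5 FPKM filter) and 10 in val1 from day 10 to 13. Without the 5 low libraries, chosen after seeing the data, the counts were 28 on average, 26 for the interaction, 24 at day 15 and 24 at day 17. Of the 18343 genes then tested, 3753 were called higher on average and 3878 in the interaction. At days 15 and 17, 3297 and 3844 of them were called in either direction. From day 7 to 10, 8 of the 34 genes fell in WT and 6 in val1 (6656 and 6590 of the 18343). The cause of these changes was not tested.

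Same-numbered libraries of the genotypes deviated together in 13 of 16 pairs (correlation over 0.1, range 0.0735 to 0.604), and the labels name no shared batch, so the numbers were not taken as pairs. At days 8 and 12 only replicates 1 and 3 are numbered, so both pairs share 1 value by construction (0.531 and 0.0735). The 16 values are therefore not all separate. That 15 of these 16 val1 libraries correlated best with the WT library of their own number is a hint of pairing from the data, not the design. Day 17 has no numbered val1 library, so over the 34 numbered libraries the average and the interaction cover 6 ages. With a replicate block 5 genes were called higher on average (5 without the block), 4 in the interaction (2), 7 at day 13 (6) and 17 at day 15 (12), and 4 fell in WT from day 7 to 10 (2). Of 18300 tested genes, 3152 were called higher on average with the block (2984 without) and 1584 in the interaction (1282). At days 13 and 15, 3460 (3140) and 3388 (3103) of them were called in either direction. At about 1 FPKM or less, as for many genes at day 17, depth and the pseudocount limit what a fold change shows.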
